A study of Mus musculus with 9 samples.

Results

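Zbp1, Ripk3 and the genes of necroptosis were followed in ROC6, a murine oral squamous cell line, with and without a knockout of Csmd3. The members were chosen by name: Zbp1, Ripk3, Ripk1, Mlkl, Casp8, Fadd, Cflar and Cyld. Of these 8 genes, 5 had a row with a unique symbol among 15446 uniquely named genes, and Ripk1, Mlkl and Cyld were not analysed here. All 5 reached a mean of 1 FPKM over the 9 libraries and were tested among 6965 genes. FPKM divides the fragments of a gene by its transcript length and the library's mapped total. Each of 3 groups had 3 libraries: a Csmd3 knockout made with guide 1, a second made with guide 2, and a wild-type control. All were grown in the same serum-containing medium, and no treatment is named. The design text speaks of a first and a second knockout clone where the labels name guides. If each guide is 1 clone, guide and clone cannot be told apart. The targeted gene was not analysed here, and the labels could not be checked against it.

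Necroptosis is a lytic form of cell death that runs when caspase activity is held back. The sensor ZBP1, which binds left-handed nucleic acids, or the kinase RIPK1 below death receptors, joins the kinase RIPK3 through a shared short protein motif, the RHIM. RIPK3 then phosphorylates MLKL, which breaks the plasma membrane. The adaptor FADD, the protease caspase-8 and its catalytically inactive relative cFLIP, encoded by Cflar, form the complex that cleaves RIPK1 and RIPK3 and keeps this route shut. Zbp1 is an interferon-induced gene, and many tumour lines carry little RIPK3.

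The promoters of Ripk3 and Casp8 are shown because Ripk3 had far lower levels with both guides and Casp8 had the smallest adjusted p between the knockouts. Each runs from 250 bases before to 50 bases after the start site in RefSeq (GRCm38.p6), 5′ to 3′ on the gene's own strand. The Ripk3 window is chr14:55788808-55789107 on the minus strand and the Casp8 window is chr1:58802252-58802551 on the plus strand. Capitals mark CpG dinucleotides in Ripk3 and, in Casp8, a match to GAAANGAAA, a form of the interferon response element with a spacer of 1 base.
Ripk3: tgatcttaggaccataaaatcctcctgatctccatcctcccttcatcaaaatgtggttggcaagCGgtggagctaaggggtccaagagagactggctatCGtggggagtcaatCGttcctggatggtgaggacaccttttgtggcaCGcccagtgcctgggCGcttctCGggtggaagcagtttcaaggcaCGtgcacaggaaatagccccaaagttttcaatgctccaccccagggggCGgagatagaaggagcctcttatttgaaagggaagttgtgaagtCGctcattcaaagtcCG
Casp8: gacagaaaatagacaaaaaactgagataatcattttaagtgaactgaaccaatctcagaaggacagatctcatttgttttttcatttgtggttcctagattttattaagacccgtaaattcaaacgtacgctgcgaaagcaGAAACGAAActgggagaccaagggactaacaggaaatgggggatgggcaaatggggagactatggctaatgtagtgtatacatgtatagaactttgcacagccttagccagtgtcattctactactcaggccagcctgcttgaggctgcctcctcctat
The Ripk3 window held 10 CpG dinucleotides, against a median of 7 over 32851 promoters of the same length. Methylation was not measured. The motifs GAAANGAAA, the same with a spacer of 2 bases, and GGGCGG (a GC box) were searched on both strands. They occurred in 3.17%, 3.44% and 35.7% of all promoters. The Ripk3 window had 1 match, to GGGCGG. The Casp8 window had 1 match, to GAAANGAAA, which starts 109 bases before the start site. In the GENCODE annotation of GRCm38, Casp8 begins further upstream, at chr1:58795374, and which start these cells use was not measured. Cflar, Casp8's neighbour, had 1 match to the form with a spacer of 2, and Fadd had 2 to GGGCGG. A match describes the letters of a window and shows no binding.

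The members and the label rest on differences from control that were already known in these data, so values against control are given as a description without a test. Both knockout means exceeded the control in 7051 of the 15446 rows and fell short of it in 8390, leaving 5 rows where the guides went apart or tied. For that reason the same direction in both guides says nothing about a gene here. The rows are thus a selected set. Shares over all genes tested and ranks among uniquely named genes describe that set, not the whole transcriptome. Both knockouts were compared with the same 3 control libraries. Differences are on the scale log2(FPKM + 1), which understates changes of genes near or under 1 FPKM.

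Zbp1 was expressed in the control and stayed under 0.2 FPKM with guide 1. The control libraries stood at 3.89, 3.91 and 2.16 FPKM, the guide 1 libraries at 0.197, 0.107 and 0.106, and the guide 2 libraries at 0.647, 0.690 and 0.834. The 3 groups did not overlap, and control replicate 3 was well below the other controls. The group means of Zbp1 were 3.32 ± 1.01 FPKM for control (SD, n = 3), 0.137 ± 0.0523 for guide 1 and 0.724 ± 0.0981 for guide 2. The control mean was 24.3 times the guide 1 mean and 4.59 times the guide 2 mean. On the log2 scale the differences from control were -1.90 and -1.30 (SE 0.154 for each), and -3.83 and -2.01 with a pseudocount of 0.1 in place of 1. All 6 knockout libraries lay under 1 FPKM, so Zbp1 was tested only through its control level and had to differ. Among the 6965 genes, 88 had a larger fall with guide 1 and 191 with guide 2.

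Control replicate 3 also had the lowest control value in 10 of 14 tested genes of the interferon list (71.4%) and in 40.2% of all genes tested. Without that library Zbp1 differed from control by -2.11 with guide 1 and -1.51 with guide 2.

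Ripk3 was several times lower than control and nearly the same in both knockouts. Its difference exceeded that of Zbp1 on the log2(FPKM + 1) scale, while with a pseudocount of 0.1 Zbp1 had the larger one with guide 1. Its control libraries stood at 12.5, 11.5 and 11.6 FPKM. The guide 1 libraries stood at 1.85, 1.34 and 1.77 FPKM, and the guide 2 libraries at 1.45, 1.81 and 1.87. Every knockout library lay far below every control, while the knockouts overlapped each other. The means were 11.9 ± 0.514 FPKM for control (SD, n = 3), 1.65 ± 0.274 for guide 1 and 1.71 ± 0.225 for guide 2, so the control was 7.19 and 6.94 times as high. The log2 differences from control were -2.28 and -2.25 (SE 0.0899 for each). With guide 1, 58 of the 6965 genes fell further, and with guide 2, 42 did. In control cells Ripk3 exceeded 82.1% of uniquely named genes, and with guide 1 and guide 2 it exceeded 59.3% and 59.5%.

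Fadd, the adaptor that links death receptors to caspase-8, was lower by a smaller margin. The control libraries stood at 4.24, 4.73 and 4.79 FPKM, the guide 1 libraries at 3.24, 2.93 and 3.19, and the guide 2 libraries at 4.13, 3.84 and 4.11. The groups did not overlap, but the highest guide 2 library came close to the lowest control. The log2 differences from control were -0.44 with guide 1 and -0.15 with guide 2 (SE 0.0630 for each). Fadd shares exon sequence with the antisense gene Faddos in the GENCODE annotation of GRCm38, and whether counting used the strand is not given in the sources used here. Faddos itself was at most 0.464 FPKM in any library.

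Casp8, the protease that restrains necroptosis and runs death receptor apoptosis, was the only one of the 5 above control. The control libraries stood at 18.0, 17.9 and 17.4 FPKM, the guide 1 libraries at 24.3, 24.4 and 26.5, and the guide 2 libraries at 18.6, 19.3 and 18.8. Guide 1 stood clear of both other groups, and guide 2 lay just above the control. The log2 differences from control were 0.47 and 0.08 (SE 0.0468 for each), or means 1.41 and 1.06 times the control. Casp8 was the most abundant of the 5 in every group, and its control mean exceeded 87.2% of uniquely named genes.

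Cflar, the inhibitor of caspase-8, was almost level. The control libraries stood at 4.15, 3.69 and 3.40 FPKM, the guide 1 libraries at 3.94, 3.51 and 3.48, and the guide 2 libraries at 3.20, 3.42 and 3.39. Each knockout overlapped the control. The log2 differences from control were -0.03 with guide 1 and -0.13 with guide 2 (SE 0.0724 for each). The guide 1 difference turned to 0.01 after rescaling by trimmed means and to 0.03 without control replicate 1.

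**Figure D1:**
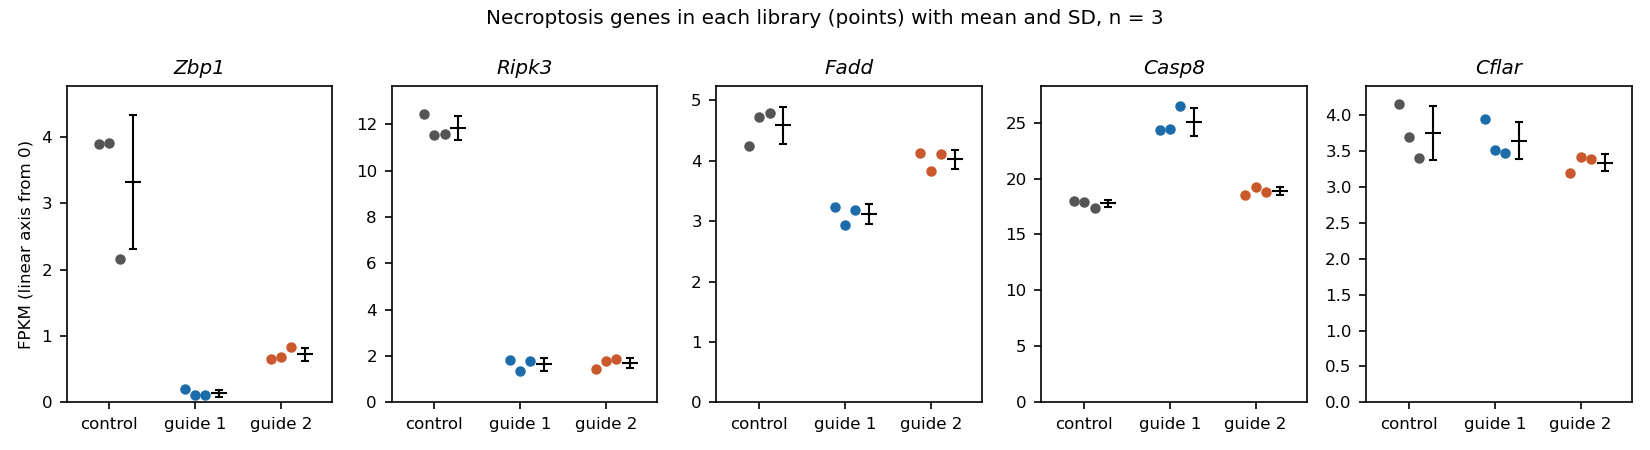
FPKM on linear axes from 0 for the 5 genes in the control, guide 1 and guide 2, with each point a library and the bar the mean and SD (n = 3). The Ripk3 controls sit at 11.5 FPKM or more and all 6 knockout libraries at 1.87 or less, while the Cflar groups overlap the control.

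In the control, the order of levels from high to low was Casp8, Ripk3, Fadd, Cflar and Zbp1. The values of Cflar and Zbp1 overlapped there, while Fadd lay above all Cflar values. In both knockouts Ripk3 dropped to the fourth place behind Fadd and Cflar. Cflar lay above Fadd without overlap with guide 1, and Fadd above Cflar without overlap with guide 2. FPKM is scaled to length, so these levels were set beside each other as a description. Other differences in how well each gene is measured were not tested, so the order of genes at near levels is uncertain.

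Over the 5 genes, 3 had all libraries of a knockout below all controls and 1 had them above, with guide 1 and again with guide 2. Among all genes tested, 39.7% lay below without overlap and 32.3% above with guide 1, and 35.5% and 33.1% with guide 2, or 71.9% and 68.6% in either direction. The median log2 difference of the 5 was -0.44 with guide 1 and -0.15 with guide 2, against -0.04 and -0.03 over all genes tested. The members were chosen with differences from control known, so these counts and medians are only a description.

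Ratios within a library do not depend on how libraries were scaled. The ratio of Ripk3 to Casp8 was 0.691, 0.644 and 0.667 for the controls, 0.0759, 0.0547 and 0.0669 with guide 1, and 0.0783, 0.0938 and 0.0994 with guide 2. Both knockouts were far below the control, and every guide 2 ratio was above every guide 1 ratio. Ripk3 itself overlapped between the knockouts, while Casp8, the denominator, averaged 25.1 FPKM with guide 1 and 18.9 with guide 2. The ratio of Cflar to Casp8 averaged 0.211 ± 0.0177 over controls (SD, n = 3), 0.146 ± 0.0154 over guide 1 and 0.177 ± 0.00407 over guide 2. The ratio of Fadd to Casp8 was 0.258 ± 0.0208, 0.125 ± 0.00749 and 0.213 ± 0.0123 in the same order. These ratios came from the comparison that chose the genes and carry no test.

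**Figure D2:**
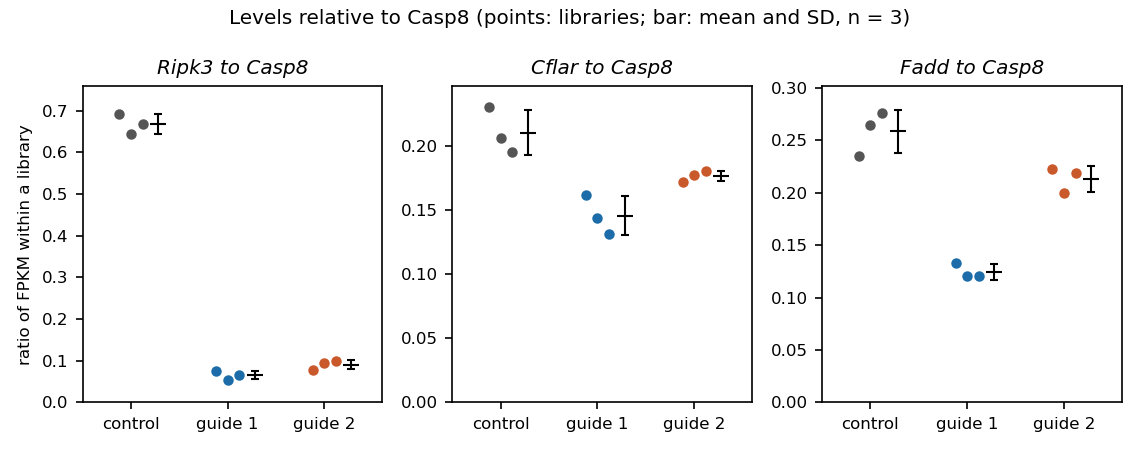
Ratios of FPKM within each library for Ripk3, Cflar and Fadd relative to Casp8, with points for libraries and bars for mean and SD (n = 3), on axes from 0. The Ripk3 to Casp8 ratio lies at 0.644 or more in the controls and at 0.0994 or less in all 6 knockout libraries.

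The knockouts were then compared with each other, a contrast in which the control cancels. It was not the comparison behind the choice of members, although the separate Zbp1 differences were known. Rows where the guides went apart or tied numbered only 5 of 15446. Genes with opposite guides are thus nearly absent, and neither the members nor the share over all genes is free of that selection. With limma over all 6965 genes, 3 of the 5 differed at an adjusted p under 0.05, 2 higher with guide 2 and 1 lower. Zbp1 is 1 of the 3, and its call is only a description, as set out below. Over all genes tested 54.5% were called, 31.2% higher and 23.3% lower, so 3 of 5 is near the share in this selected set of genes.

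Casp8 was lower with guide 2 by 0.39 log2 units (difference -0.39, 95% confidence interval -0.49 to -0.28, limma adjusted p = 5.53e-05). Zbp1 was higher with guide 2 by 0.60 log2 units (interval 0.26 to 0.94, limma adjusted p = 0.00756), a mean 5.30 times as high. Its knockout libraries all lay under 1 FPKM, so it passed the filter only through its control level. Since its separate differences were also known beforehand, its adjusted p values serve only as a description. That difference was 1.82 with a pseudocount of 0.1 (limma adjusted p = 0.000219). Over all alternatives run the adjusted p of Zbp1 lay between 0.000181 and 0.0309. Fadd was higher with guide 2 by 0.29 log2 units (interval 0.15 to 0.43, limma adjusted p = 0.00304).

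Ripk3 and Cflar did not pass. The Ripk3 difference was 0.03 (interval -0.17 to 0.23, limma adjusted p = 0.779). The Cflar difference was -0.10 (interval -0.26 to 0.06, limma adjusted p = 0.288), although every guide 2 library was below every guide 1 library. Libraries did not overlap between the knockouts in 4 of the 5 genes, 2 higher with guide 2 and 2 lower. Over all genes tested 61.5% did not overlap, 34.8% higher and 26.6% lower.

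**Figure D3:**
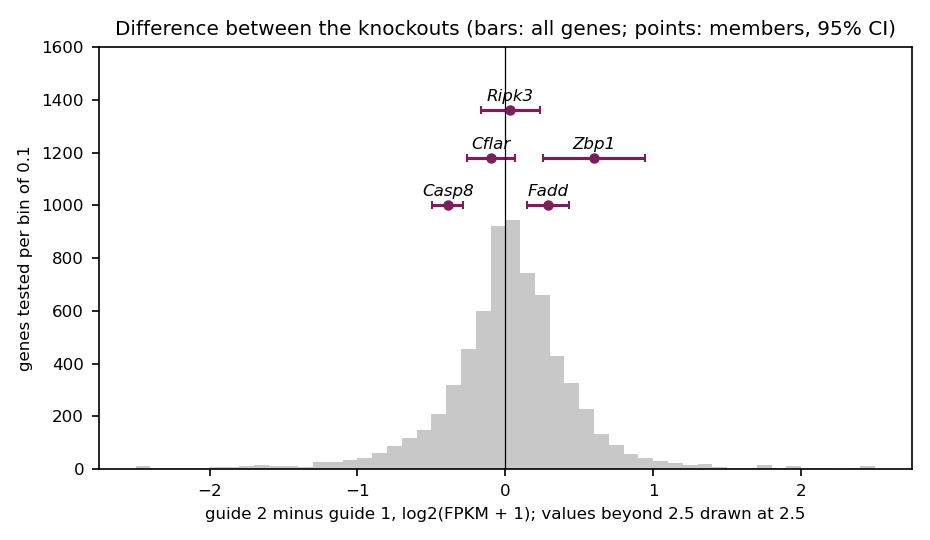
Histogram of the guide 2 minus guide 1 difference in log2(FPKM + 1) for the 6965 genes tested, with the 5 genes as points and 95% confidence intervals placed at heights chosen for legibility and values beyond the axis drawn in its end bins. Casp8 lies below 0, Fadd and Zbp1 above it, and the intervals of Ripk3 and Cflar span it.

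Genes with the pattern most like each of the 2 named genes were taken by Pearson's r of log2(FPKM + 1) over the 9 libraries, as a description. For Zbp1 they were Tifa, Acat2, Msmo1, Clip4 and Adam12, with r from 0.994 to 0.997. Tifa, an adaptor of innate immune signalling, averaged 8.57 ± 1.07 FPKM over controls (SD, n = 3), 4.35 ± 0.0785 over guide 1 and 5.35 ± 0.121 over guide 2. Acat2 and Msmo1 encode enzymes of sterol metabolism. All 5 had their lowest control value in control replicate 3, as Zbp1 did. Without that library, 1 of these 5, Clip4, was again among the 5 most alike. For Ripk3 the genes were Usp30, Eya2, Ptpn13, Mlec and Canx, with r from 0.996 to 0.998. Ptpn13, a protein tyrosine phosphatase, averaged 30.8 ± 0.116 FPKM over controls, 8.84 ± 0.357 over guide 1 and 8.87 ± 0.455 over guide 2. Eya2 averaged 15.3 ± 0.584 FPKM over controls and 0.0512 ± 0.0445 over guide 1, and was listed at 0 in every guide 2 library. Zbp1 and Ripk3 had an r of 0.933 with each other, which put Zbp1 at rank 474 by likeness to Ripk3. The libraries fall into 3 groups, so these r values mostly compare group levels.

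The surrounding pathway was described with 7 lists of 135 genes in all, of which 74 had a row and 67 were tested. With guide 1, 17 were called higher and 34 lower than control (25.4% and 50.7%), where all genes tested gave 30.2% and 37.9%. With guide 2, 17 were called higher and 31 lower (25.4% and 46.3%), against 31.9% and 33.5%. Calls in either direction made up 68.1% and 65.4% of all genes tested. Between the knockouts 26 were higher with guide 2 and 15 lower (38.8% and 22.4%), against 31.2% and 23.3% over all genes tested. The median log2 difference over the 67 genes was -0.18 with guide 1 and -0.09 with guide 2. Single lists had 3 to 15 tested genes, and their counts below are to be set beside these shares over all genes tested. A shared direction in both guides was nearly fixed by which genes have a row, so it is given below only as a description.

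Upstream of the complex, the death ligand gene Tnfsf10, which encodes TRAIL, was present in the control and nearly lost in the knockouts. Its control libraries stood at 3.45, 3.04 and 2.71 FPKM, the guide 1 libraries were all listed at 0, and the guide 2 libraries stood at 0.0665, 0.0205 and 0. Among 9 tested ligands, receptors and receptor adaptors of 14 listed, 3 rose and 3 fell with guide 1, and 4 rose and 5 fell with guide 2. Tnfsf10 is among those that fell, and like Zbp1 it was tested only through its control level and had to differ. Their median log2 difference was -0.04 with guide 1 and -0.19 with guide 2. Tnfrsf1b, the second TNF receptor, rose to 19.2 ± 1.51 FPKM (SD, n = 3) in guide 1 libraries and 11.3 ± 0.810 in guide 2 libraries, from 8.59 ± 0.0872. The main TNF receptor gene, Tnfrsf1a, fell from 105 ± 4.95 FPKM to 58.5 ± 2.53 and 74.1 ± 3.07. The death receptor gene Fas fell from 5.01, 5.09 and 5.18 FPKM to 3.24, 3.11 and 3.18 with guide 1 and to 2.33, 3.03 and 3.30 with guide 2. Traf5, an adaptor of TNF receptors, rose by 0.67 and 0.69 log2 units (limma adjusted p = 1.34e-05 and 1.31e-05).

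Genes whose products set the ubiquitin and kinase state of RIPK1 went both ways. Of 10 tested of 19 listed, 3 rose and 5 fell with guide 1, and 3 rose and 5 fell with guide 2, with medians of -0.04 and -0.11. Tnfaip3, the ubiquitin-editing inhibitor A20, rose to 13.1 ± 0.985 FPKM (SD, n = 3) in guide 1 libraries and 2.61 ± 0.194 in guide 2 libraries, from 1.01 ± 0.209. Otulin, which removes linear ubiquitin chains, fell from 43.1 ± 1.78 FPKM to 23.4 ± 0.567 and 29.1 ± 1.70. Sharpin, a subunit of the ligase that builds these chains, rose from 5.41 ± 0.0814 FPKM to 8.69 ± 0.997 and 8.55 ± 0.250. After trimmed mean rescaling 5 genes, not 3, rose with guide 1. The 5 genes lower with guide 1 became 2 after quantile normalization, after trimmed mean rescaling and without a filter on low values. They became 2 without guide 1 replicate 2, and 3 without guide 1 replicate 1, control replicate 1 or control replicate 3.

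Among sensors of nucleic acids and microbial products, Ifih1, Tlr4 and Sting1 fell with both guides. Of 6 tested of 14 listed, 1 rose and 4 fell with guide 1, and 2 rose and 3 fell with guide 2, with medians of -0.49 and -0.16. Ifih1, the RNA sensor MDA5, fell from 2.70 ± 0.420 FPKM (SD, n = 3) to 0.988 ± 0.0687 and 1.47 ± 0.113. Tlr4, the endotoxin receptor, fell from 4.91 ± 0.445 FPKM to 3.28 ± 0.220 and 2.86 ± 0.183, and Sting1, an adaptor of DNA sensing, from 13.6 ± 1.26 to 8.36 ± 0.670 and 11.1 ± 0.429. Adar, whose product edits double-stranded RNA and holds ZBP1 in check, rose to 5.17 ± 0.245 FPKM in guide 1 libraries and 6.95 ± 0.427 in guide 2 libraries, from 4.26 ± 0.102. Ticam1, an adaptor that also carries a RHIM, stood 0.17 log2 units above control with guide 1 (limma adjusted p = 0.0911, not called), and rose by 0.40 with guide 2 (limma adjusted p = 0.00145). The 1 gene higher with guide 1 became 2 without guide 1 replicate 1 or control replicate 1 and under both rescalings. Between the knockouts 5 of the 6 were higher with guide 2 and 0 lower, against 31.2% and 23.3% over all genes tested. Without guide 2 replicate 2 there were 3, and the difference of Ifih1 no longer passed (limma adjusted p = 0.0515, 0.0144 with all libraries).

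Among interferon receptors, signalling and induced genes, Psmb8 and Oasl2 fell with both guides and were higher with guide 2 than with guide 1. Of 14 tested of 30 listed, 1 rose and 9 fell with guide 1, and 2 rose and 8 fell with guide 2, with medians of -0.74 and -0.25. Between the knockouts 8 were higher with guide 2 and 3 lower (57.1% and 21.4%), against 31.2% and 23.3% over all genes tested. Psmb8, a subunit of the immunoproteasome, stood at 13.9, 13.6 and 14.2 FPKM over controls, 1.10, 1.29 and 1.11 with guide 1, and 7.72, 7.15 and 7.66 with guide 2. Its difference between knockouts was 1.97 log2 units (SE 0.0565, limma adjusted p = 3.19e-09). Oasl2, an interferon-induced gene, fell from 2.69 ± 0.479 FPKM (SD, n = 3) to 0.413 ± 0.0273 and 1.70 ± 0.106. After trimmed mean rescaling 2 genes, not 1, rose with guide 1.

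Among regulators of RIPK3 and MLKL and genes of membrane repair, Uhrf1 and Hsp90ab1 rose with both guides and Pgam5 fell with guide 1. Of 15 tested of 26 listed, 4 rose and 8 fell with guide 1, and 3 rose and 6 fell with guide 2, with medians of -0.23 and -0.09. Uhrf1, which maintains DNA methylation, rose from 53.5 ± 4.92 FPKM (SD, n = 3) to 80.5 ± 2.03 and 73.2 ± 4.12. Hsp90ab1, a chaperone of RIPK3 and MLKL, rose from 884 ± 38.2 FPKM to 1327 ± 19.6 and 1213 ± 25.6. After quantile normalization neither Hsp90ab1 difference passed (limma adjusted p = 0.0675 and 0.281). Pgam5, a mitochondrial phosphatase, fell by 0.58 log2 units with guide 1 (limma adjusted p = 0.000125) and differed by -0.15 with guide 2, not called (limma adjusted p = 0.136), and by -0.22 without control replicate 2 (limma adjusted p = 0.0428).

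Among caspases and mitochondrial apoptosis genes, the BH3 genes Pmaip1 and Bid rose with both guides and Bbc3 with guide 1. Of 10 tested of 18 listed, 5 rose and 3 fell with guide 1, and 3 rose and 2 fell with guide 2, with medians of 0.18 and 0.03. Pmaip1, which encodes NOXA, rose from 2.92 ± 0.236 FPKM (SD, n = 3) to 26.3 ± 1.47 and 5.13 ± 0.451. Bbc3, which encodes PUMA, rose from 2.73 ± 0.526 FPKM to 8.27 ± 0.393 with guide 1 and was at 3.45 ± 0.476 with guide 2, a difference short of the threshold (limma adjusted p = 0.0578). The adjusted p of that guide 2 value was 0.0234 without guide 2 replicate 1 and 0.0272 without control replicate 2. Bid, the substrate that links caspase-8 to mitochondria, rose from 13.5 ± 0.596 FPKM to 26.3 ± 1.26 and 20.1 ± 0.768. Between the knockouts 5 genes were lower with guide 2 and 2 higher (50% and 20%), against 23.3% and 31.2% over all genes tested. Only 3 were lower when guide 1 replicate 1 or 2 or guide 2 replicate 1 or 3 was left out.

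Of the pyroptosis genes 3 of 14 were tested, 2 fell with each guide and 0 rose, with medians of -0.56 and -0.24. Casp1, the inflammatory caspase, stood at 10.6, 11.1 and 9.25 FPKM over controls, 0.710, 0.755 and 0.904 with guide 1, and 6.08, 5.80 and 5.55 with guide 2. Like Zbp1 and Psmb8, it was lowest with guide 1 and intermediate with guide 2, without overlap. Fadd, Otulin, Sting1 and Tnfrsf1a, among others, had this order too, and its share over all genes tested was not counted. Hmgb1, a nuclear protein released by dying cells, fell from 79.4 ± 8.97 FPKM (SD, n = 3) to 53.5 ± 3.85 and 66.8 ± 4.86. The guide 2 change of Hmgb1 (limma adjusted p = 0.029) did not pass without guide 2 replicate 2 (0.0927), guide 2 replicate 3 (0.0866) or control replicate 3 (0.0988), which left 1 gene lower. Its limma adjusted p was also 0.0551 after quantile normalization, 0.0595 after trimmed mean rescaling and 0.0814 without a filter on low values.

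**Figure D4:**
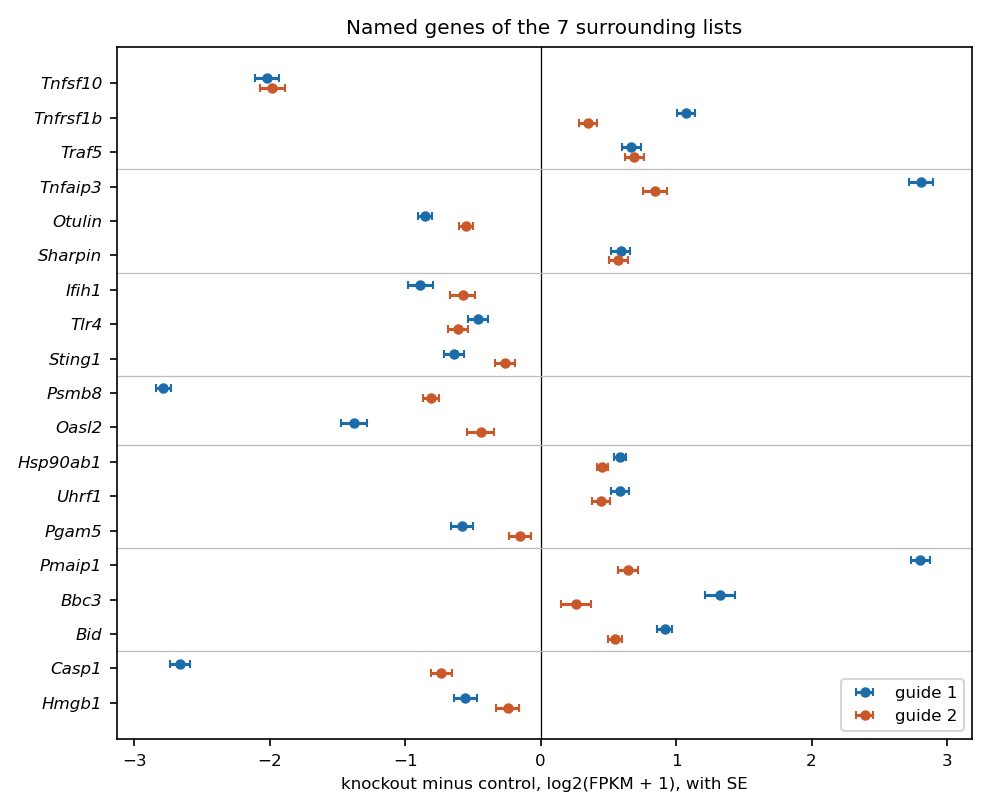
Difference from control in log2(FPKM + 1) with SE for the largest called genes of the 7 lists, guide 1 in blue and guide 2 in orange, lists divided by grey lines. Tnfaip3 and Pmaip1 reach 2.81 and 2.80 with guide 1 but 0.85 and 0.65 with guide 2, and Psmb8 and Casp1 fall further with guide 1.

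The sum of FPKM over uniquely named genes lay between 162625 and 168620 per library, and read depth is unknown. Correlations of log2 values across genes were 0.991 to 0.993 within groups and 0.893 to 0.950 between groups. Of 15 markers of squamous epithelium 7 had a row, with summed levels of 82.0 to 90.1 FPKM over controls, 132 to 143 over guide 1 and 93.7 to 98.6 over guide 2. Perp, a desmosomal membrane protein, made up most of that sum at 75.0 to 107.6 FPKM. Krt17 stayed at or under 0.249 FPKM and Itgb4 at or under 0.879 in every library, and Krt15 was at 0 in all controls. Jup averaged 3.09 FPKM over controls, 20.9 over guide 1 and 7.99 over guide 2, and Itga6 averaged 2.23, 9.49 and 2.34 in the same order. Keratins 5 and 14 were not analysed here, so the squamous label was checked only in part. Zbp1 and Ripk3 are also expressed by leukocytes, of whose 16 markers 4 had a row. Their summed level ranged from 0.623 to 1.12 FPKM over controls, 1.52 to 2.19 over guide 1 and 2.29 to 2.90 over guide 2. Most of it was Cd68, at means of 0.652, 1.35 and 2.16 FPKM in that order, and Lyz2 was at 0 in all controls. Fibroblast markers, 2 of 10 with a row, summed to 0.840 to 1.60, 1.44 to 1.82 and 7.89 to 9.08 FPKM for control, guide 1 and guide 2. Postn made up most of that sum, at means of 1.30, 1.61 and 7.83 FPKM in the same order. Endothelial markers, 3 of 8 with a row, summed to 0.844 to 1.25, 2.25 to 2.32 and 1.87 to 2.17 FPKM in that order. The part of these markers in the results was not tested. In bulk RNA, fewer cells expressing a gene and less RNA per cell cannot be told apart. The labels do not say whether replicates are separate cultures, and the p-values cover only the scatter of these libraries, possibly a technical one.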

How the data were processed

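Stranded poly(A) libraries were sequenced from 9 samples, per the labels' protocols, and grouped by sample title. Values are FPKM for each gene as the authors deposited them, per the file headers. Tools were cutadapt, FastQC, HISAT2 and StringTie, per the submitters' processing notes. For versions, genome build and annotation, the entry is: not given in the sources used here. Of 15620 rows, 174 that share 62 symbols were left out, as were 8481 genes with a mean under 1 FPKM.

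Values were analysed as log2(FPKM + 1) by limma (version 3.58.1, R 4.3.3). All 9 libraries entered 1 model whose prior variance followed the mean, with Benjamini-Hochberg adjustment over all genes tested, and called under 0.05. The model was also run on simulated data with far fewer changed genes than were called here, so that run is no support for these calls. SD is over the 3 libraries of a group and SE comes from limma. FPKM keeps no read total, so no count model was fitted.

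Members and lists were chosen with earlier results of these data known. Named genes were the members with a row and, of each list, the 3 called genes with the largest mean difference. Tnfrsf1a, Fas, Adar and Ticam1 were added after their values were seen, and 1 gene that the rule names is not reported here. The other alternatives were a filter of 5 FPKM or none, a pseudocount of 0.1, quantile normalization, rescaling by means after trimming 30% at either end, a constant prior variance, the replicate number as a block, a fit to just the pair of groups compared, and each library left out in turn. Likeness to Zbp1 without control replicate 3 was added after seeing the data. Promoters came from RefSeq (GRCm38.p6) for 7 of the 8 members, and Zbp1 was not among them.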

Additional observations from a re-analysis of the deposited data

Results flagged for a closer look

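The effect against control differed between the knockouts, by the test of guide 2 against guide 1 in limma (adjusted p under 0.05), for 3 of the 5 necroptosis genes, a share near the 54.5% called over all genes tested. The differences, guide 2 minus guide 1 on the log2 scale, were 0.60 for Zbp1, -0.39 for Casp8 and 0.29 for Fadd. For Zbp1 the call is only a description, since the gene passed the filter through its control level alone and its differences were known beforehand. Among the named genes around them, those higher with guide 2 were Psmb8 at 1.97, Casp1 at 1.93, Oasl2 at 0.94, Pgam5 at 0.43, Sting1 at 0.38, Ifih1 at 0.32, Hmgb1 at 0.31 and Otulin at 0.31. Those lower with guide 2 were Pmaip1 at -2.16, Tnfaip3 at -1.96, Bbc3 at -1.06, Tnfrsf1b at -0.72, Bid at -0.37 and Hsp90ab1 at -0.13. The Hsp90ab1 difference did not pass without guide 1 replicate 1, 2 or 3 or guide 2 replicate 2, where its adjusted p lay between 0.0535 and 0.0742, nor without a filter on low values (0.278) or after quantile normalization (0.440).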

How the results depend on the processing

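The numbers of genes called over the whole table moved by less than 1.5 times under every alternative run. For the 5 necroptosis genes, 236 of the alternative values kept their direction and call or stayed within the spread of replicates, 6 moved and 4 turned sign. Many of the 236 were fixed in advance. Against control only the difference was judged, and another filter, a constant prior variance, the block or the pair fit leaves it unchanged. Leaving out a library of the group not compared does so too, so the 236 are no measure of stability. The Ripk3 difference between knockouts, which did not pass, was -0.0540 without guide 1 replicate 2 and -0.00904 without guide 2 replicate 3, in a range of -0.0540 to 0.104 over libraries left out. The Cflar difference of guide 1 from control was 0.00616 after trimmed mean rescaling and 0.0299 without control replicate 1, in a range of -0.0830 to 0.0299 over libraries left out. With a pseudocount of 0.1, Ripk3 stood at -2.78 and -2.73 and Fadd at -0.54 with guide 1, and after trimmed mean rescaling Casp8 stood at 0.52 with guide 1. Zbp1, Fadd and Cflar fall under a filter of 5 FPKM and have no value there. No scaling moved the median of all genes by over 0.1. Of the list counts, 45 moved by over 1.5 times, 18 of them with a library left out and 12 with the filter of 5 FPKM, which tests fewer genes. Between the knockouts, the ligand and receptor genes lower with guide 2 went from 2 to 1 without guide 1 replicate 1 or 3 or guide 2 replicate 1, and the regulators of RIPK3 and MLKL from 3 to 1 without guide 1 replicate 3.

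Whether replicate numbers pair the libraries was not settled. Deviations of same-numbered libraries correlated between -0.107 and 0.245, over 0.1 in 2 of 9 pairs. Different-numbered libraries correlated between -0.234 and 0.163, over 0.1 in 2 of 18 pairs. Of the 9 libraries, 7 correlated best with their own number. Between the knockouts, same-numbered libraries correlated at 0.245, 0.0219 and 0.210 for replicates 1, 2 and 3. A replicate block gave 4764, 4559 and 3784 calls for guide 1, guide 2 and between them, against 4745, 4557 and 3793. With the block, Zbp1 had a limma adjusted p of 0.0119 between knockouts, which for this gene is only a description. Under the block Bbc3 with guide 2 passed (0.0396) and Hmgb1 with guide 2 did not (0.0503). FPKM carries no depth, so counting error for Zbp1 at these levels is unknown.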
